A study of Mus musculus with 8 samples.

Results

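The shared single-gene promoter regions of 4 mouse breast tumors were the stretches of chromatin near the start of a single protein-coding gene that carried acetylated histone in every tumor. They were found by joining the peak lists of the 4 tumors into 89238 union regions on the autosomes, wherever intervals overlapped or touched. A region was kept when it was under 8000 bp wide, held a peak of all 4 tumors and came within 1000 bp of the start of exactly 1 protein-coding gene in GENCODE M21. This left 8467 regions, 9.49% of all union regions and 24.8% of the 34078 regions shared by the 4 tumors. They belonged to 7828 genes, 37.6% of the 20807 autosomal protein-coding genes. Since peaks in the 4 tumors chose the regions, the presence of a peak in each tumor is a property of the rule and not a result.

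The peaks mark histone H3 with an acetyl group on lysine 27 (H3K27ac), mapped by ChIP-seq, which sequences the DNA that an antibody pulls down with the mark, in breast tumors on the Balb/c background. All mice were Rag1KO, which leaves a host without T and B cells of its own but with its myeloid cells, carried the polyoma middle T oncogene (PyMT), and received wild type CD4+ T cells by injection when 4 weeks old. The 2 control tumors had the genotype PyMT;Rag1KO. The 2 test tumors had the genotype K14-TSLPtg;PyMT;Rag1KO, in which the keratin 14 promoter, active in basal epithelium such as that of the skin, drives the cytokine thymic stromal lymphopoietin. Tumors were taken at terminal size, so age at collection could differ, and by their titles the control samples were tumors while the test samples were cysts. By the study's description the 4 tumors came from separate mice.

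H3K27ac is set by the acetyltransferases p300 and CBP on nucleosomes beside active promoters and enhancers. Many mammalian promoters lie in stretches rich in the dinucleotide CpG, which are kept free of DNA methylation and serve genes used in most cell types. At an active start the polymerase and its cofactors hold a gap between nucleosomes, with acetylated nucleosomes on either side.

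The sequence at the start of the gene was not used by the rule. A start was called CpG-rich when the 250 bases before it and the 50 bases from it on had at least 50% G and C and an observed over expected CpG ratio of at least 0.6. Of the 7828 genes, 5049 (64.5%) had a CpG-rich start, against 42.5% of all autosomal protein-coding genes and 13.8% of the 8616 genes without a peak within 1000 bp in any tumor. Seen from the other side, 57.1% of the 8838 CpG-rich genes had a shared single-gene region, and 23.2% of the 11969 other genes had one. Regions that held the starts of several genes were richer still, with 75.2% of 2556 genes. Genes with a peak but no region shared by the 4 tumors had 33.8%. These are shares over genes, which are not replicates, and were not tested.

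The starts differed in the same way in the short motifs they held. In each window of 300 bases both strands were searched, and no motif searched lay inside another. The GC box (GGGCGG, bound by Sp1 and its relatives) was present at 62.1% of the genes, against 43.7% of all genes and 20.5% of genes without a peak. The ETS motif (CCGGAAGT) was at 7.73%, against 4.8% and 0.743%. NRF1 sites (a factor of genes for mitochondria, searched by its palindromic consensus) were at 2.08%, against 1.25% and 0.197%. The cyclic AMP response element (TGACGTCA) was at 3.58%, against 2.43% and 1.01%. YY1 sites (the consensus with ATGG at its core) were at 1.62%, against 1.08% and 0.0812%. The E-box (CACGTG) was at 10.5%, against 7.82% and 4.83%. The CCAAT box was equally common everywhere, at 38.7%, 38.6% and 38.7%. The TATA box (TATAAA) went the other way, at 7.19% against 12.7% and 20.3%. Placed 20 to 40 bp before the start, where TATA-binding protein acts, it was at 1.12%, against 2.85% and 5.22%. The AP-1 motif (TGANTCA, in which N is any base) was also less frequent, at 4.92% against 6.88% and 9.49%. A higher GC content alone makes some of these letters more frequent, so the shares describe the starts and do not show binding.

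The motifs are shown in 9 starts, for each motif the gene of a listed family whose match lay nearest to the start. Each sequence runs from 150 bases before the start to 30 bases from it on, in the direction of the gene, in the RefSeq sequence of GRCm38, which is the mm10 assembly of the files. Capitals mark every match to the motif on either strand.
Eif2ak4, chr2:118388468-118388647, plus strand: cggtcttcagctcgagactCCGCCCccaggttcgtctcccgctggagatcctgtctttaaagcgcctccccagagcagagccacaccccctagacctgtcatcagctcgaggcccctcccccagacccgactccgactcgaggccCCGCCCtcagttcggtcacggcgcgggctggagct
Mrps26, chr2:130563592-130563771, plus strand: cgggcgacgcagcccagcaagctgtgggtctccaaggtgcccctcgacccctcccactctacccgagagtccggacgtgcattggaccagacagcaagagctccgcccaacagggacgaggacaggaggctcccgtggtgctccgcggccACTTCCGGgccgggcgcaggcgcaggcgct
Zfp329, chr7:12818829-12819008, minus strand: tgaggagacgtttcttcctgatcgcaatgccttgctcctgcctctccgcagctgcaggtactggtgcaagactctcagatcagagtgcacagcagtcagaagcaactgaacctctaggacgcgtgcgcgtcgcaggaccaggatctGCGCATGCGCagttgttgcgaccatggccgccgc
Cdc42, chr4:137357691-137357870, minus strand: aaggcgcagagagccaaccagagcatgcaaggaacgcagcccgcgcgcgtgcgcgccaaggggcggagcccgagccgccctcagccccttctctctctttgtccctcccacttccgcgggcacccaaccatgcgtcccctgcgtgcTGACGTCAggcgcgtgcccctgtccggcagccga
Prpf38b, chr3:108911698-108911877, minus strand: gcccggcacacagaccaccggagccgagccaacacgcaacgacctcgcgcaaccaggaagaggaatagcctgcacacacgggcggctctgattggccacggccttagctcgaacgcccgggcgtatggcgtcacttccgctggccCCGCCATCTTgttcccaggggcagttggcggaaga
Med31, chr11:72215563-72215742, minus strand: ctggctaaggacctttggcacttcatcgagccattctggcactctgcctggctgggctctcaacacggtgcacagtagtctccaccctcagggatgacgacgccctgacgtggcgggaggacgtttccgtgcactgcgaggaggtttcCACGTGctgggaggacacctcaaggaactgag
Anapc5, chr5:122821310-122821489, minus strand: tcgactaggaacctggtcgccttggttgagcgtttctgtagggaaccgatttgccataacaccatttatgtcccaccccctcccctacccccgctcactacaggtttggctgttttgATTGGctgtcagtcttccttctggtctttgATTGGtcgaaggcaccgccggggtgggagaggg
Zfp84, chr7:29768402-29768581, plus strand: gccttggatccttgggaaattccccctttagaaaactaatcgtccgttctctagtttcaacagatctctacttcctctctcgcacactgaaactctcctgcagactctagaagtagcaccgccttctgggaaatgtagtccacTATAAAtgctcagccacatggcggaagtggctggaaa
Slc38a7, chr8:95853510-95853689, minus strand: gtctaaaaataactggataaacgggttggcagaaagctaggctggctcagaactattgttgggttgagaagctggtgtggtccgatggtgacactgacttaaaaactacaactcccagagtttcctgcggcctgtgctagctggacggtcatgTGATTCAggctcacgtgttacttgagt

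The capitals are the GC box in Eif2ak4, the ETS motif in Mrps26, the NRF1 motif in Zfp329, the cyclic AMP response element in Cdc42 and the YY1 motif in Prpf38b. They are the E-box in Med31, the CCAAT box in Anapc5, the TATA box in Zfp84 and the AP-1 motif in Slc38a7. In Zfp84 the TATAAA begins 7 bp before the annotated start, closer than the position of a working TATA box. All 9 starts lay inside a shared region, and those regions differed in width. Eif2ak4, a kinase that senses uncharged transfer RNA, had a region of 1742 bp with 1220 and 1167 acetylated bp in the control tumors against 1419 and 1632 bp in the test tumors. Cdc42, a small GTPase of cell polarity, had 1448 and 2218 bp in the control tumors against 1931 and 2041 bp in the test tumors. Zfp329 had 369 and 379 bp in the control tumors against 767 and 349 bp in the test tumors, so that test 1 alone set the width of its region. Mrps26, a protein of the small mitochondrial ribosomal subunit, was even, with 1435, 1354, 1276 and 1468 bp in control 1, control 2, test 1 and test 2.

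**Figure D1:**
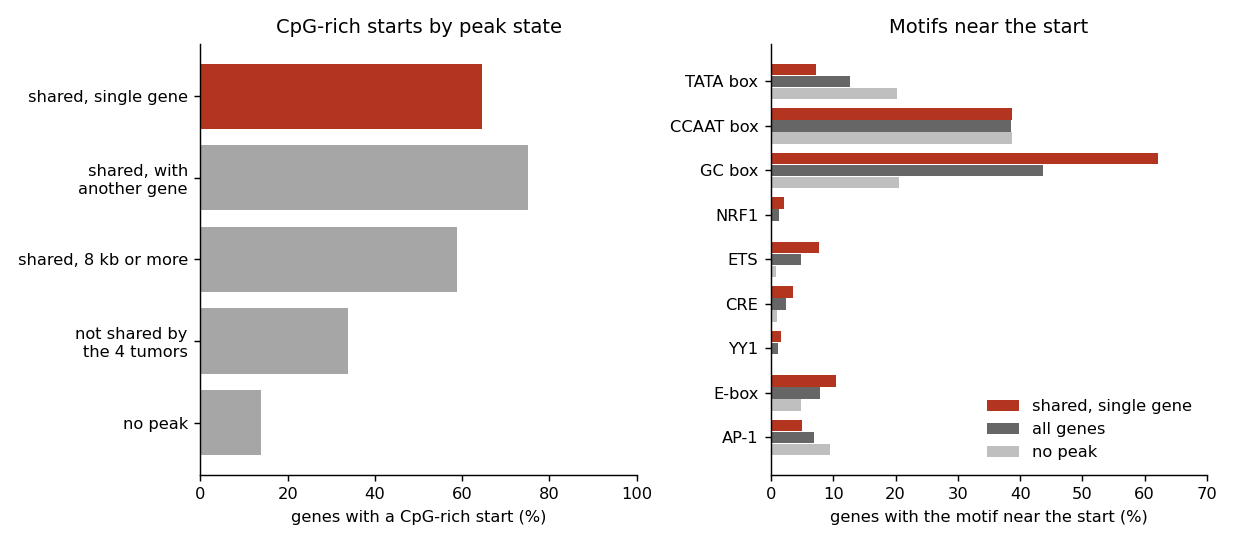
The left panel plots the percent of genes with a CpG-rich start in each state of the promoter, and the right panel plots the percent of genes with each motif within 300 bases at the start. Genes with a shared single-gene region (64.5% CpG-rich) lie far above genes without a peak (13.8%), the GC box has the widest gap between them and the TATA box and AP-1 motif run in the opposite direction.

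The lists hold positions and no signal, so the measure here is acetylated length, the bases of a region that lay inside a peak of a given tumor. The rule kept only regions under 8000 bp. Their median width was 1749 bp, with quartiles at 1157 and 2636 bp and a range from 206 to 7993 bp. The median was 1698 bp over all shared regions and 1626 bp over those under 8 kb with no protein-coding start. Those under 1 kb made up 18.7%, those of 1 to 2 kb 40.4%, those of 2 to 4 kb 30.8% and those of 4 kb or more 9.98%. The widest were at Rassf1, a tumor suppressor of the Ras association family (7993 bp), at Etv6, an ETS repressor (7992 bp), and at Eps8l2 (7975 bp). The nearest regions above the width limit were at Jmy (8027 bp) and Srgap3 (8046 bp). Regions of CpG-rich starts had a median width of 1757 bp and the others 1721 bp. Rassf1 was acetylated over 7876 and 7744 bp in the control tumors against 7528 and 5306 bp in the test tumors, and Etv6 over 6450 and 6303 bp against 7938 and 6947 bp.

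The narrowest regions were at 4931440F15Rik (206 bp), at Tpm3-rs7 (226 bp) and at Eif3j2 (234 bp). Tpm3-rs7 and Eif3j2 are near copies of Tpm3 and Eif3j1, so that short reads there may be hard to place, and these values are uncertain. At Eif3j2 the tumors had 200 and 205 bp (control) and 213 and 184 bp (test).

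**Figure D2:**
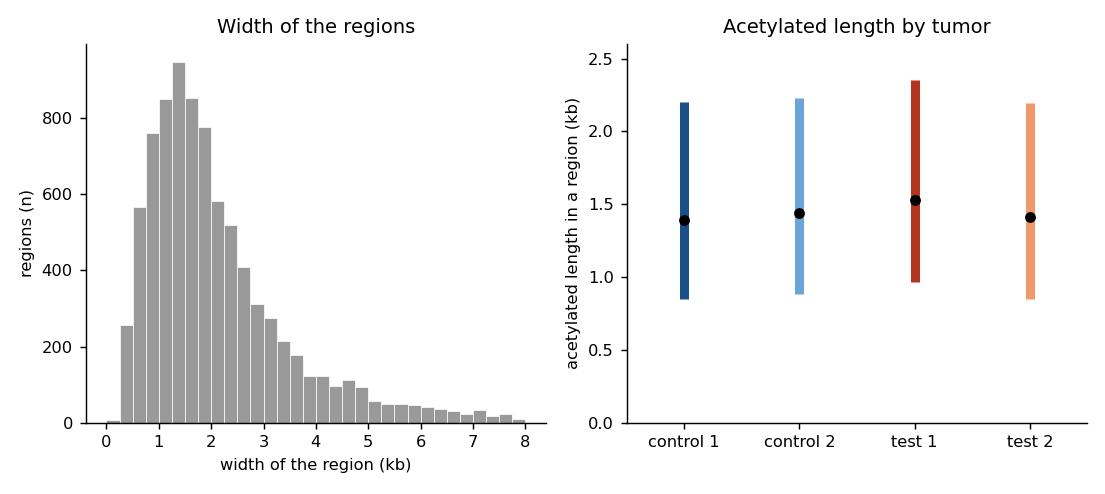
The left panel is a histogram of the union width of the 8467 regions in kb. In the right panel the dots are the median acetylated length of a region in each tumor and the bars run from the lower to the upper quartile, with medians between 1392 and 1530 bp and bars that overlap almost fully.

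Acetylation was placed toward the inside of the gene. Of the acetylated bases in these regions, 66.1% (control 1), 66.7% (control 2), 66.0% (test 1) and 66.3% (test 2) lay downstream of the start. The rule did not ask on which side of the start a region lay, and the window around the start was symmetric. But the start was the outermost one of the gene, so its other starts could only lie downstream. Regions that reached another gene's start were left out, and the part of this last choice in the share was not tested. All 4 tumors gave a share above 50%, and they differed by less than 1 percentage point. The downstream side was the longer one in 74.6 to 75.9% of regions, depending on the tumor. Among the 3777 regions of genes whose coding transcripts all start within 100 bp of each other the share was 64.2 to 65.0%.

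The share of regions with a peak at a given distance was highest 250 to 300 bp past the start, where it reached 84.6% and 87.9% in control and 90.6% and 88.0% in test tumors. At the start itself it was 68.0%, 73.0%, 77.5% and 70.5% in control 1, control 2, test 1 and test 2. At 1000 bp before the start it was 21.1 to 24.1%, and at 1000 bp past it 51.3 to 56.2%. Over all regions a shallow dip lay just before the start in every tumor, and it was seen at the CpG-rich starts. There the share fell from 74.1 to 78.4% at 300 bp before the start to 61.8 to 70.2% at 100 bp before it. At the other starts it rose over the same distance, from 52.0 to 57.4% to 60.4 to 66.7%. Among the regions that held the start the share was also higher at the nearer distance in every tumor (72.1 to 76.7%, then 74.6 to 82.4%). The lists had been joined across gaps of up to 200 bp, which fills narrow dips, so the depth of a dip cannot be read from them. In each tumor 46.9 to 55.0% of the regions held a single peak of the caller, and the median number was 2 in the control tumors and 1 in the test tumors.

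**Figure D3:**
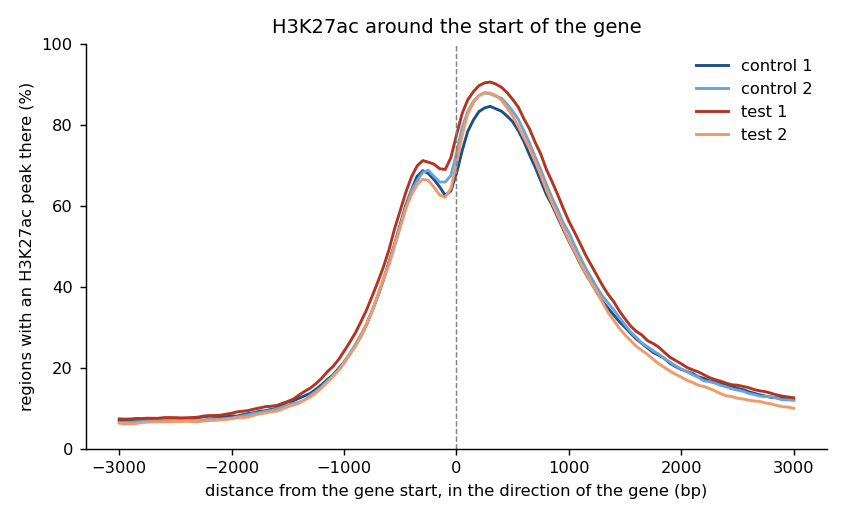
The plot gives, for each tumor, the percent of the 8467 regions with a peak at each distance from the start in bp, with the gene running to the right. All 4 curves have their top 250 to 300 bp past the start, a shoulder before it and a longer tail into the gene, and test 1 runs highest.

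The start itself lay inside the region in 6727 cases (79.4%), and these regions reached a median of 662 bp upstream and 1184 bp downstream. In 5349 of them (79.5%) the downstream arm was longer. Of the 1740 regions without the start, 1090 lay downstream of it and 650 upstream. For 968 of them the same gene had another shared region, and 453 (26%) held the start of another coding transcript of the gene. Regions under 1 kb held the start in 45.2% of cases and those of 4 kb or more in 93.1%. Counted in bases, 34.5% of the regions lay upstream of the gene, 17.3% in exons of its coding transcripts, 47.4% elsewhere in the gene, mostly introns, and 0.727% past its end.

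Most genes (7199) had 1 such region, 619 had 2 and 10 had 3. An example of the last, chosen after its values were seen, is Pou2f1, which encodes the octamer-binding factor Oct-1. Its acetylation was split into a piece of 765 bp upstream, a piece of 378 bp beginning 6 bp past the start and a piece of 1120 bp further in. The middle piece was acetylated over 354 and 339 bp in the control tumors against 362 and 332 bp in the test tumors, an even length in all 4. The start of a long noncoding RNA lay in 932 regions (11.0%), for 900 of them on the strand opposite to the gene. Regions with such a start were wider, with a median of 2213 bp against 1697 bp.

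The genes covered the basic machinery of the cell. From 17 families that build it, chosen by gene symbol, 391 of 617 genes (63.4%) had a shared single-gene region, against 37.6% of all genes, and a further 163 shared a region with another gene's start. In only 39 of the 617 did no tumor have a peak within 1000 bp. Cdc6 and Cdc45 stand in both the replication and the cell division list. These counts use the peaks that chose the regions, and are given as a description.

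Among families of transcription, 15 of 27 subunits of the nuclear RNA polymerases, 19 of 28 subunits of Mediator, which links factors to polymerase II, and 15 of 20 TBP-associated factors were included. Polr2a, the large subunit of polymerase II, had the widest region of its family, with 3287 and 2823 bp in the control tumors against 3568 and 3403 bp in the test tumors. Polr1b, of polymerase I, had the narrowest, with 251, 225, 319 and 334 bp. At Polr2a and Polr1b both test tumors were above both control tumors, and neither passed limma with Benjamini-Hochberg adjustment (adjusted p = 0.973 for both). Taf1c, of the polymerase I selectivity factor, had 473 and 425 bp in the control tumors against 710 and 757 bp in the test tumors. Med18 had 2527 and 2581 bp against 3095 and 2971 bp. Taf13 went the other way, with 1226 and 1291 bp against 1102 and 1028 bp. The groups overlapped at Polr2g (1446, 1606, 1243 and 1470 bp), Med7 (1466, 1195, 1461 and 1085 bp) and Taf1a (2478, 1704, 2195 and 2275 bp).

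In RNA processing, 28 of 48 spliceosome genes and 12 of 20 nuclear pore genes were included. Prpf8, the core protein of the spliceosome, had 1173 and 1752 bp in the control tumors against 1445 and 1300 bp in the test tumors, and the groups overlapped. Nup210 was the widest of the nuclear pore, at 3437 and 3082 bp in control and 2896 and 2201 bp in test tumors. In translation, 38 of 52 initiation factor genes and 42 of 78 mitochondrial ribosomal genes were included. Eif4g2 spanned 4945 bp and Eif6, which keeps the large ribosomal subunit from joining too early, 1925 bp. Mrpl12, the widest of the mitochondrial ribosome, spanned 2495 bp, and regions of that family had the low median width of 1396 bp.

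In protein turnover, 26 of 38 proteasome genes, 27 of 34 ubiquitin-conjugating enzymes and 9 of 18 autophagy genes were included. Psma6, a subunit of the proteasome core, had 4035 and 4453 bp in the control tumors against 4856 and 4797 bp in the test tumors. Ube2h had the widest region of the enzymes, with 5513, 4957, 6243 and 5074 bp. Atg5, needed to build the autophagosome, had 3789 and 4064 bp in control and 4516 and 4405 bp in test tumors. In mitochondria, 18 of 35 genes of complex I and 14 of 23 import genes were included, the latter led by Tomm22, a receptor of the outer membrane, with 1199, 1812, 2749 and 1595 bp. The order of the tumors changed from gene to gene, and none of these passed the limma test (adjusted p from 0.973 to 0.999 over the genes named from the families).

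In trafficking, 26 of 34 vacuolar sorting genes, 39 of 55 Rab GTPases and 8 of 14 intraflagellar transport genes were included. Rab15 was the widest of the Rab genes, and test 2 stood apart there with 3314 bp against 6199 and 5660 bp in the control tumors against 6329 bp in test 1. Rab35 was the narrowest, at 442 to 541 bp in the 4 tumors. In the copying and partition of the genome, 22 of 37 replication genes and 33 of 58 cell division genes were included. Ccna2, cyclin A2, had 1588 and 1707 bp in the control tumors against 1467 and 1636 bp in the test tumors. Cdk17 had the widest region there, with 6857, 7035, 6374 and 7079 bp, and Rfc3, of the clamp loader, 1084, 1082, 1362 and 1159 bp.

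Zinc finger genes made up the most numerous family, with 254 of 383 genes, although 45.2% of the family had CpG-rich starts. Their regions were short, with a median of 1442 bp and extremes at Zfp420 (311 bp) and Zfp608 (7818 bp). Of the developmental factors of the Sox, Pax and Fox families 17 of 68 were included, and 41 had no peak. Sox4, a factor of progenitor and tumor cells, was the widest of them and nearly constant, with 6571 and 6487 bp in the control tumors against 6431 and 6667 bp in the test tumors.

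Families of transporters, channels and receptors, and the secreted defensins, were seldom included, except solute carriers. Of 356 solute carriers 134 were, at the share of all genes (37.6%). Potassium channels had 9 of 91, among them Kcnk5, a background channel, with 5574, 5540, 5807 and 6446 bp. Kcnj8 was uneven, with 2372 and 1615 bp in control and 2178 and 947 bp in test tumors. Olfactory receptors had 6 of 1087, vomeronasal receptors 1 of 326 and defensins 0 of 64.

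A few sensory receptor genes were uneven between tumors. Olfr550 had 662 and 958 bp in the control tumors against 1071 bp in test 1, against 3958 bp in test 2. Olfr691 had 577, 392 and 311 bp against 3260 bp in test 2, and Vmn1r183 had 193, 158 and 168 bp against 2194 bp. In these 3 the tumor with the long stretch was test 2, which was also the longest tumor at Olfr159 and Olfr688 but not at Olfr212 and Olfr156. Olfr159 had 626 and 1093 bp in control and 1380 and 1648 bp in test tumors, Olfr212 501, 379, 270 and 408 bp, and Olfr156 397, 432, 921 and 216 bp, where test 2 was the shortest. In Vmn1r183 no base was acetylated in all 4 tumors. None of the 6 olfactory starts was CpG-rich. Receptors of this kind have near-identical relatives, so reads may be misplaced among them, and Olfr156, Olfr688 and Olfr691 were named outside the rule for naming genes, after their values were seen, with Olfr688 at 1398, 694, 1927 and 2045 bp.

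**Figure D4:**
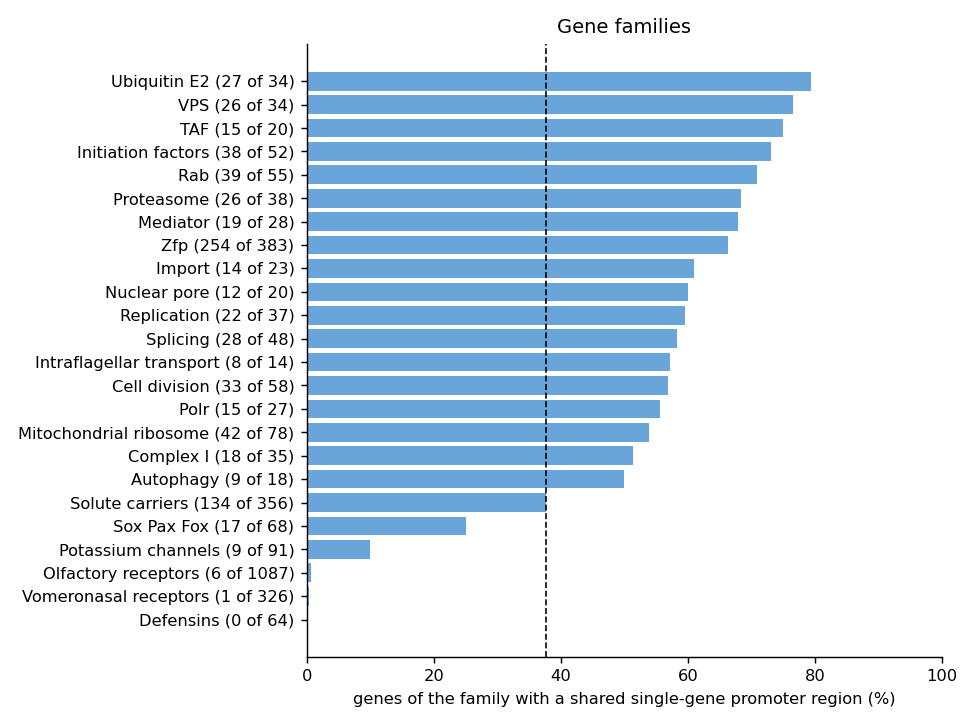
Bars give the percent of each family's autosomal genes with a shared single-gene promoter region, with the counts beside the name, and the dashed line marks all genes (37.6%). The families of the cell's machinery and the zinc finger genes lie to the right of the line, solute carriers on it, and developmental factors, potassium channels and sensory receptors to its left.

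The tissue was checked against markers. Of 10 markers of luminal epithelium, 6 had a shared single-gene region, Cdh1 and Gata3 had shared regions of 8 kb or more, Elf5 had peaks in some tumors and Foxa1 had none. Epcam, an adhesion molecule of epithelium, had 4512 and 4440 bp in the control tumors against 4462 and 4436 bp in the test tumors. Krt8 had 6286, 5695, 6087 and 6376 bp and Krt18, its keratin partner, 6546, 6096, 6567 and 6891 bp. These 3 epithelial genes were even in all 4 tumors. Cd24a had 4947 and 4940 bp in control and 5574 and 5120 bp in test tumors, Esr1, the estrogen receptor, 2173 and 2025 bp against 1378 and 1882 bp, and Krt19 920, 403, 522 and 226 bp. Summed over the 10 markers within 1000 bp of the start, the tumors had 13400 and 11164 bp in control and 12180 and 12013 bp in test.

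Markers of other cells were few among the regions. Of 7 myeloid markers 2 were included, Ptprc (the leukocyte antigen CD45) with 1761 and 1522 bp in control and 1241 and 661 bp in test tumors, and Spi1, described with the named regions. Those are lengths over the whole region, while the sums of each list count bases within 1000 bp of the starts alone. On that measure the 7 myeloid markers summed to 4530 and 4426 bp in control and 4150 and 2273 bp in test tumors. Cd68, a lysosomal protein of macrophages whose region also held another gene's start, had 1592 and 1832 bp in control and 1811 and 1447 bp in test tumors within that distance, and the groups overlapped. Csf1r and Adgre1, which define macrophages, were at 0 in every tumor. In all of these lists the window lay at the outermost annotated start of the gene. Starts further into a gene were not searched, so a 0 does not cover them. Of 8 fibroblast markers Col1a1 was included, with 1462, 638, 844 and 642 bp over its region, most of it beyond 1000 bp from the start (289, 0, 0 and 0 bp within), and the list summed within 1000 bp to 1045 and 1557 bp in control and 409 and 0 bp in test tumors, with Col1a2, Lum and Thy1 at 0 throughout. Of 7 basal markers Krt14 was included, with 1320, 787, 1418 and 669 bp over its region, and the list summed within 1000 bp to 2584, 651, 2176 and 0 bp, with Trp63 and Myh11 at 0. The 6 endothelial markers summed to 1386, 503, 166 and 0 bp, with Kdr, Tek, Tie1 and Vwf at 0 and none included. T cell markers (5 of 6 on the autosomes) summed to 76 bp in control 1 and 0 elsewhere, with Cd3e, Cd3g, Cd4 and Cd8a at 0, and the lists for B cells, adipocytes, neurons and hepatocytes were at 0 in all tumors.

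The comparison of interest was between test and control tumors, that is, whether the regions differed in length with TSLP. Control 1 and control 2 had median acetylated lengths of 1392 and 1441 bp per region, and test 1 and test 2 had 1530 and 1410 bp. Test 2 lay between the control tumors, so the groups overlapped. The group means were 1416 ± 34.6 bp (SD, n = 2) and 1470 ± 84.9 bp (SD, n = 2), a ratio of 1.04 that ran from 0.978 to 1.10 when each test tumor was set against each control tumor. The exact permutation test (two-sided) gave p = 0.667, where the smallest p that 4 tumors allow is 0.333. The regions held 20.3 to 22.8% of all autosomal bases in peaks. The tumors had 58328 to 68404 autosomal intervals, and the read depth behind them is unknown. Deeper sequencing gives wider peaks, so its part cannot be told apart from acetylation here. In bulk tumors, fewer cells of a type and less acetylation per cell cannot be told apart either.

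Region by region, limma with a mean-variance trend on log2 acetylated length over all 34078 shared regions called 0 of the 8467 higher and 0 lower in test tumors at an adjusted p under 0.05 (Benjamini-Hochberg), against 0.0% of all shared regions in either direction. The smallest adjusted p was 0.973. At an unadjusted p under 0.05, 124 were higher and 98 lower, where 2.3% and 2.11% of all shared regions were. The lower count rested on single tumors. It rose strongly without test 1, fell without control 1 or control 2, and hardly moved without test 2. The higher count moved less. The median log2 difference, test minus control, was 0.05, and 0.02 over all shared regions. In 2091 regions (24.7%) both test tumors were above both control tumors, against 19.1% of all shared regions, and in 872 (10.3%) both were below, against 13.3%. In the other 5504 (65.0%) the groups overlapped. The gap between the groups was small, with a median of 98 bp in the first set and 97 bp in the second, and it reached 500 bp in 78 and 75 regions, where 1.38% and 1.58% of all shared regions did. Test 1 was the widest tumor in 3403 regions and test 2 in 1913, and the part of this in the counts was not tested.

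Regions at the extremes of this comparison are named by the size of the gap and were chosen for it, so their values are a description without a test of their own. The 19 given here each had an adjusted p of 0.973 by limma. Vamp2, the vesicle protein synaptobrevin, (region chr11:69085914-69090445) led those above control, with 2302 and 2404 bp in the control tumors against 3897 and 4172 bp in the test tumors, a log2 difference of 0.78 ± 0.11 (SE). Arrb1, which encodes a receptor adaptor of the arrestin family, had 1548 and 1855 bp against 3777 and 3169 bp (1.03 ± 0.17). At both genes the tumors of a group lay closer to each other than to the other group.

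Clint1, a clathrin adaptor, had 3632 and 3753 bp in control and 4897 and 4844 bp in test tumors, and Hs3st3b1, a heparan sulfate sulfotransferase, 2210 and 459 bp against 3516 and 3286 bp. At Hs3st3b1 the control tumors lay further apart than the nearest tumors of the groups, and its log2 difference of 1.75 became 2.89 without control 1 and 0.62 without control 2. Lonrf1 had 3600 and 3227 bp against 4669 and 5603 bp, and 2010300C02Rik 2444 and 1626 bp against 4178 and 3457 bp. Rnf130, a ubiquitin ligase, had 2583 and 2345 bp against 3853 and 3563 bp, and Mfap3l 1415 and 1431 bp against 2390 and 2419 bp. Npas2, a circadian factor that pairs with BMAL1, had 765 and 821 bp in control and 1755 and 2226 bp in test tumors, a log2 difference of 1.32 ± 0.24. Of the 9 given here above control, 8 had CpG-rich starts, against 66.0% of all 8467 regions. Over the 78 regions above control by at least 500 bp the share was 65.4%. Among the regions named below control, Plk2 alone had a CpG-rich start.

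Below control, Spi1, the myeloid and B cell factor PU.1 (chr2:91080574-91086440), had 5485 and 4472 bp in the control tumors against 2985 and 1044 bp in the test tumors (log2 difference −1.49 ± 0.54, SE), a difference of −2.25 without test 1 and −0.73 without test 2. Ccr1, a chemokine receptor of myeloid cells (chr9:123964956-123968675), had 3405 and 3648 bp against 946 and 1134 bp (−1.77 ± 0.17), in a region beginning 17 bp past the start. Inpp5d, the SHIP1 phosphatase of blood cells, had 5822 and 5603 bp against 3546 and 1879 bp. Both test tumors were shorter than both control tumors at each, and test 2 was the shorter of them at Spi1 and Inpp5d but not at Ccr1.

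Cd53, a tetraspanin of leukocytes, had 2675 and 3033 bp in control and 1104 and 487 bp in test tumors (−1.96 ± 0.45). Mpeg1, the macrophage pore protein perforin-2, had 3971 and 3604 bp against 1459 and 2100 bp. Laptm5, a lysosomal protein of blood cells, had 3888 and 3707 bp against 2213 and 1006 bp, and Arhgap25, a GTPase-activating protein of leukocytes, 3904 and 3512 bp against 1958 and 1519 bp. The summed myeloid markers were at 2273 bp in test 2 and 4150 bp in test 1, against 4530 and 4426 bp in the control tumors. Spi1, chosen here for its gap, is one of these markers. It gave 2001 and 1715 bp of the sums in the control tumors and 1641 and 633 bp in test 1 and test 2. The sums are thus not independent of the choice, and the part of cell makeup in these regions was not tested. Without test 2 the log2 difference was −0.69 at Inpp5d (−1.15 with all tumors) and −0.78 at Laptm5 (−1.35).

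The other regions named below control were Slc38a1, a glutamine transporter (chr15:96637873-96643813), with 5634 and 5804 bp in control and 2914 and 2944 bp in test tumors (−0.97 ± 0.09), Plk2, a polo-like kinase, with 5021 and 7364 bp against 2812 and 2579 bp, and C1qtnf6, with 3023 and 3366 bp against 1667 and 455 bp (−1.87 ± 0.67, but −2.81 without test 1 and −0.94 without test 2). At Slc38a1 the tumors of each group lay close together. Over all 872 regions below control 57.7% of starts were CpG-rich, and over the 2091 above control 71.2%, against 66.0% of all 8467. With a gap of at least 500 bp the shares were 40% (75 regions) and 65.4% (78 regions).

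**Figure D5:**
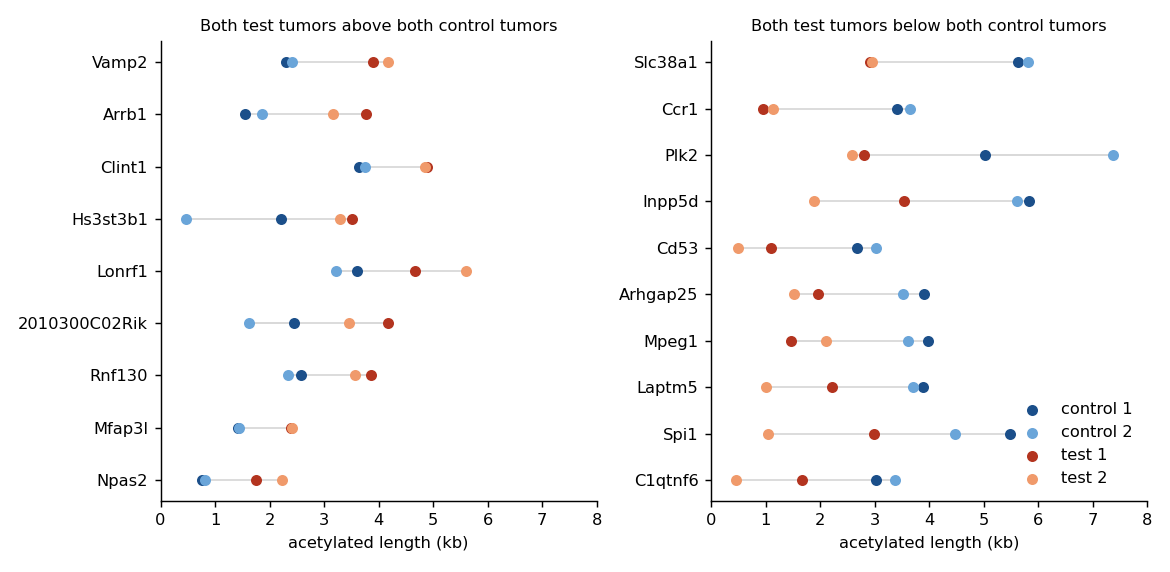
Each row is a region named for the size of the gap between the groups and each dot is the acetylated length in kb in 1 tumor, with control tumors in blue and test tumors in red and orange. By choice the groups do not overlap in any row, and the gaps run from 934 to 1493 bp in the left panel and from 1356 to 2690 bp in the right.

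The regions were more even between tumors than shared regions away from starts. The range over the 4 tumors, as a percent of their mean, had a median of 29.6% (quartiles 17.3 and 50.4%), against 58.1% for the 23675 shared regions under 8 kb with no protein-coding start and 23.1% for the 1345 with the starts of several genes. Among regions of 1 to 2 kb, where width was alike, the medians were 30.7%, 67.8% and 24.5%. The bases acetylated in all 4 tumors made up a median of 67.5% of a region, against 45.8% away from starts. In 63 regions no base was acetylated in all 4. The range was under 20% of the mean in 2622 regions (31.0%) and over 100% in 522 (6.17%). Regions are not replicates, and these medians were not tested against each other.

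The most even regions of at least 1 kb were at Dnd1, an RNA-binding protein of germ cells, at Sik1, a salt-inducible kinase, and at Plxnb2, a semaphorin receptor. Dnd1 had 2519 and 2514 bp in control and 2512 and 2517 bp in test tumors. Sik1 had 4156, 4179, 4189 and 4152 bp, and 98.6% of its region was acetylated in all 4 tumors. Plxnb2 had 4923, 4911, 4965 and 4925 bp. At Dnd1 the lengths spanned 0.278% of their mean but 70.9% of the region was acetylated in all 4, so the acetylated stretches were of equal length without lying on the same bases throughout. Evenness grew with width, from a median range of 44.3% of the mean under 1 kb to 21.3% at 4 kb or more.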

How the data were processed

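The authors aligned the reads to mm10 with BWA and called peaks in each tumor with MACS2 against its input. The deposited lists give interval positions and the names of the caller peaks joined in each, with no read count, score or signal. Neighbouring intervals lay at least 201 bp apart, so closer peaks had been joined. Input libraries were not analysed here.

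Groups came from the genotype labels, and tumor numbers only name tumors. Acetylated length was the peak bases of a tumor within a union region. The members, gene families, markers and motifs were chosen with earlier results of these data known. Differences were tested by limma 3.58.1 (R 4.3.3) on log2 acetylated length over all 34078 regions shared by the tumors, and by an exact permutation of the 4 tumors. Limma was also run on simulated data with the same spread in every region and large planted differences. That run does not show whether differences of the size seen here could be found. No filter or pseudocount was needed. Genes named were the 10 with the largest gap between groups in each direction, the 3 widest, 3 narrowest and 3 most even regions, the 2 just above the width limit, markers, the widest, narrowest and median region of each family, and the gene with each motif nearest the start. A region that this rule names is not reported here. Alternatives were other windows, starts, widths, joinings, scalings and tumors left out.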

Additional observations from a re-analysis of the deposited data

How the results depend on the processing

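No alternative gave a region past the adjusted threshold in limma, where the counts at an unadjusted p under 0.05 ran from 82 to 149 higher and from 28 to 462 lower with a tumor left out. The 462 arose without test 1, where the smallest adjusted p was 0.175, against 98 with all tumors, while leaving out control 1 gave 42 and control 2 gave 28. Without control 2 the 124 higher became 82, and without the mean-variance trend 163. In those fits the lone tumor of a group is assumed to vary like the others. The number of regions ran from 6827 (intervals of at least 500 bp) to 10080 (starts of all protein-coding transcripts), and from 8638 to 8934 with a tumor left out. The ratio of median length was 1.02 to 1.04 under other measures and 0.995 to 1.08 with a tumor left out, so its direction rests on test 1.

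The downstream share of 66.3% became 64.0% within 2 kb of the start and 64.5% in genes with a single start. The CpG-rich share of 64.5% became 46.4% at a ratio of at least 0.75, 70.5% in 500 bp either side and 66.6% from intervals of at least 500 bp. Added after the data were seen, a gap of at least 100 bp left 1032 regions above control (background 10.6%) and 429 below (background 7.76%), and scaling each tumor to its median over shared regions gave 1830 (21.6%, background 17.6%) and 917 (10.8%, background 14.8%). The 19 regions given for their gap kept their direction in all 152 alternative fits. They were chosen with the groups apart, so leaving out a tumor could not reverse them, and this is no support for a difference. At 5 of them, given in the text, a tumor left out moved the difference by over 1.5 times. No paired analysis was possible because the labels give no replicate numbers shared between groups. Depth is unknown, and a length has no counting error to print.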

Other observations

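Single tumors stood apart at some regions. Test 2 had at most 50% of the length of each other tumor at 211 regions (2.49%, against 6.53% of all shared regions), control 1 at 85 (1.0%, against 1.31%), control 2 at 58 (0.685%, against 2.41%) and test 1 at 19 (0.224%, against 1.21%). At least 2 times the length of each other tumor was seen at 7 regions in control 1 (0.0827%, against 0.651% of all shared regions), 27 in control 2 (0.319%, against 0.522%), 37 in test 1 (0.437%, against 0.59%) and 38 in test 2 (0.449%, against 1.53%). The genes named here were chosen after their values were seen, from the 15 widest differences on each side in each tumor. Test 2 was short at Snai1, the Snail repressor of epithelial genes, with 6647 and 6828 bp in the control tumors and 7030 bp in test 1 against 2509 bp. Likewise, Lrp1, an endocytic receptor, had 4269, 5719 and 5651 bp against 677 bp, Timp2, a metalloproteinase inhibitor, 3977, 3339 and 4320 bp against 885 bp, and Ccn2, connective tissue growth factor, 3513, 3225 and 3093 bp against 400 bp. Within 1000 bp of their starts, the summed fibroblast, endothelial and basal markers were at 0 bp in test 2, although the regions of Col1a1 and Krt14 held 642 and 669 bp further out. In test 1, where these 4 regions were long, the fibroblast markers (409 bp) and endothelial markers (166 bp) within that distance were also below both control tumors, and their part in these values was not tested.

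Test 1 was short at several interferon-induced genes. Ifit3 had 830 and 1253 bp in control and 1277 bp in test 2 against 222 bp in test 1. Oas1a had 938, 901 and 1322 bp against 370 bp, Trim30a 742, 1165 and 1608 bp against 189 bp and Isg20 943, 1421 and 928 bp against 400 bp. In the other direction, test 2 was long at Sorbs2, with 1574, 1547 and 834 bp in the other tumors against 5555 bp, and at Nes, the intermediate filament nestin, with 1271, 1897 and 1542 bp against 4759 bp. Control 2 was long at Slc16a3, a lactate transporter, with 2340 bp against 274 bp in control 1 and 170 and 313 bp in the test tumors.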
